A study of Danio rerio with 6 samples.

Results

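The genes described here are 10 members of the insulin-like growth factor (IGF) system of the zebrafish: the ligand genes igf1, igf2a and igf2b, the receptor genes igf1ra and igf1rb, and the binding protein genes igfbp1a, igfbp2a, igfbp3, igfbp5a and igfbp5b. They were taken by symbol from a table of 35197 rows, and each of the 10 was found on a single row with whole counts in all 6 libraries. RNA had been sequenced from whole embryos at 48 hours post-fertilization (hpf), in 3 wildtype libraries and 3 libraries of embryos homozygous for a dnajc21 mutation, all untreated. Dnajc21 is a J-domain co-chaperone that acts late in the assembly of the large ribosomal subunit. Every library was made from a pool of 30 to 50 embryos. The wildtype columns carry the name of casper, a pigment-poor strain, while the sources used here give neither the strain of the mutants nor the lesion, so that strain and genotype cannot be told apart. Nothing says that the pools were separate clutches, and p-values measure only the spread between these libraries.

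IGF ligands are secreted peptides related to insulin. They bind receptor tyrosine kinases of the Igf1r type, which signal through docking proteins to PI3K, Akt and TOR and promote growth of cells and tissues in the embryo. IGF-binding proteins hold the ligands outside the cell, prolong or block their action, and are cleaved by proteases that release the ligand. Zebrafish carry duplicated copies of many of these genes, marked a and b.

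Of the 9 members with enough counts for a test, 2 were higher in mutants and 0 lower: the receptor gene igf1rb and the binding protein gene igfbp5b, by about 1.39-fold and 1.23-fold. Among all 20229 genes tested, 11.7% were called in either direction and 5.85% as higher by edgeR's quasi-likelihood test, at a Benjamini-Hochberg adjusted p under 0.05, and 5.87% as lower. With 2 of 9 members called, the count is too small to set the family apart from other genes. The remaining member, igf1, had too few counts to be tested. No tested member was lower even at an unadjusted p under 0.05. Members at that level numbered 3, beside 5160 of all 20229 genes. DESeq2 called 0 members in all, and limma-voom 1, beside 1172 and 2065 of the 20229 genes tested. With any 1 mutant library left out, 0 members were called. The log2 fold changes were then 0.47 to 0.49 for igf1rb and 0.29 to 0.32 for igfbp5b. With 1 library of either group left out, that of igf1rb ranged more widely, from 0.35 to 0.61. Genes called in all numbered 2372 with every library and 1242 to 2658 with 1 library of either group left out.

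**Figure D1:**
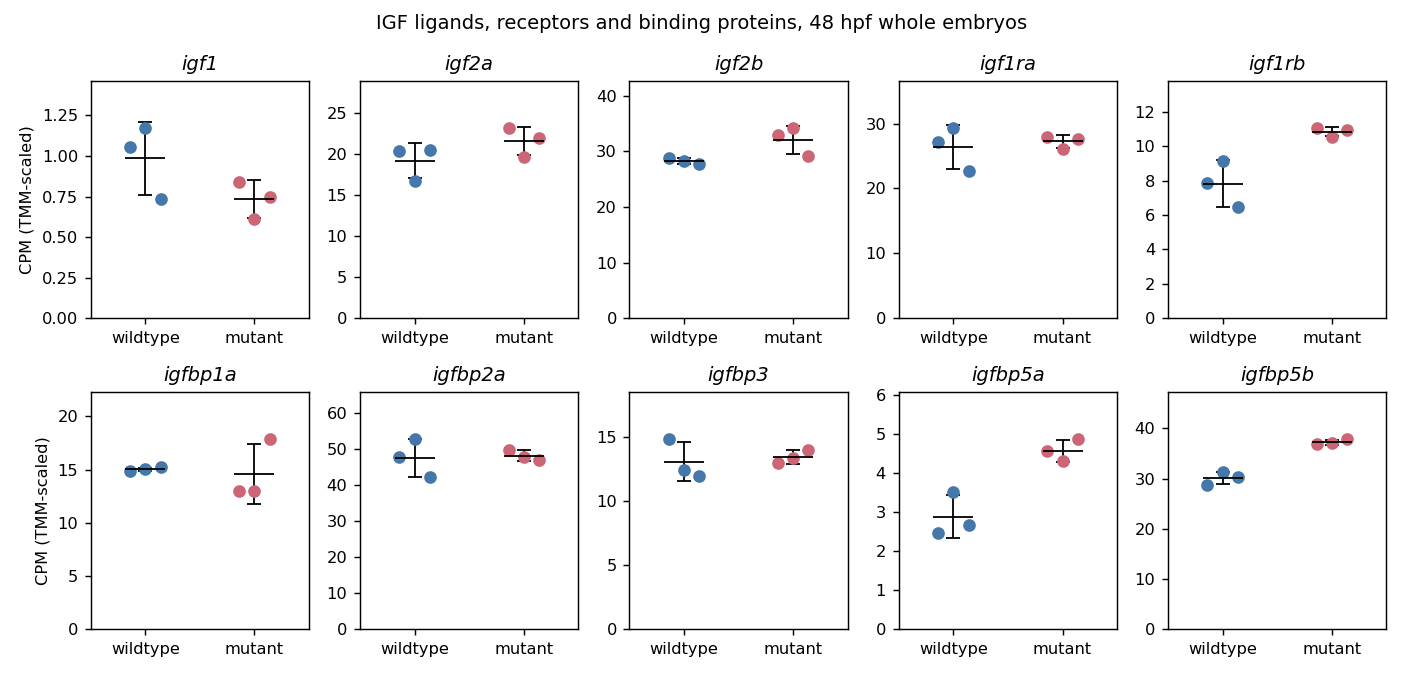
Each panel plots 1 gene in CPM for the 3 wildtype and 3 mutant libraries as points, with the mean and SD as bars; the vertical axes start at 0 and differ between panels. The mutant points lie above all wildtype points for igf2b, igf1rb, igfbp5a and igfbp5b, and the groups overlap in the 6 other panels. Of all 20229 genes tested, 15.1% had all mutants above and 15.4% all mutants below. The number of members is too small to set the family apart.

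Libraries held 8600951 to 11798543 expected counts. Expression is given as CPM, that is, per 1e+06 counts of a library total adjusted by TMM factors. It is not corrected for transcript length, so levels of different genes are not ranked against each other. The targeted gene dnajc21 was lower in the mutant libraries, at 18.0 ± 1.48 against 26.1 ± 4.27 CPM (SD, n = 3 each; log2 fold change -0.55, edgeR adjusted p = 0.00492). In a principal component analysis the mutants lay together, whereas wildtype replicates 1 and 2 stood at opposite ends of the second component (26.8 and -26.5, with the mutants between -3.07 and 1.26). At least some markers of liver, muscle, heart, neurons, lens, skin, blood, cartilage and pituitary were detected. Only bglap of cartilage and bone was at 0 in every library, but others were near 0. The liver gene fabp10a had 0, 0 and 0 counts in wildtype and 1, 2 and 1 counts in mutant libraries. Only 2 of 7 pituitary genes had enough counts for a test. In RNA from whole embryos, fewer cells of a type and less RNA per cell cannot be told apart.

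The ligand genes did not pass the test. The peptide encoded by igf1 is the main growth hormone-dependent ligand of later life, and its row (LL0000012527) had 9, 12 and 8 counts in the wildtype libraries (replicates 1 to 3, an order kept below) and 10, 6 and 8 counts in the mutants. The means were 0.987 ± 0.224 CPM for wildtype and 0.735 ± 0.115 CPM for mutants (SD, n = 3 each), and the groups overlapped. Counts this low left it below the expression filter. Without the filter its log2 fold change was -0.41 (edgeR adjusted p = 0.711), so no change in igf1 was detected, and counts this low could miss one.

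The igf2 copies encode the ligand that in mammals predominates before birth. For igf2b (LL0000012531), CPM values were 28.8, 28.3 and 27.7 in wildtype and 32.9, 34.1 and 29.2 in mutant libraries. The mutants all lay above the wildtypes, but by little, and the log2 fold change of 0.18 (95% interval -0.0012 to 0.36) did not pass (edgeR adjusted p = 0.200). All mutants lay above all wildtypes in 15.1% of the genes tested. For igf2a (LL0000012530), values were 20.4, 16.7 and 20.4 CPM in wildtype and 23.1, 19.7 and 22.0 CPM in mutant libraries. These groups overlapped, with a log2 fold change of 0.18 (interval -0.05 to 0.41; edgeR adjusted p = 0.336). As folds, the intervals ran from 0.963 to 1.32 for igf2a and from 0.999 to 1.29 for igf2b.

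The receptor copies differed in their values. The igf1rb row (LL0000012529) measured 7.84, 9.16 and 6.45 CPM in the wildtype libraries, and 11.0, 10.5 and 10.9 CPM in the mutants. The mutants lay close together and above every wildtype library, as in 15.1% of genes tested. The log2 fold change was 0.48 (SE 0.15, interval 0.17 to 0.78; edgeR adjusted p = 0.0424). The call ended without wildtype replicate 1 (adjusted p = 0.0563) or 3 (0.163), and without mutant replicate 1 (0.127), 2 (0.108) or 3 (0.124). It also ended with DESeq2 (0.318), with limma-voom (0.0531) and without robust weights (0.0559). For igf1ra (LL0000012528), values were 27.1, 29.2 and 22.7 CPM in wildtype and 28.0, 26.1 and 27.7 CPM in mutant libraries. The wildtype libraries spanned the mutant values, and the log2 fold change was 0.05 (interval -0.16 to 0.26; edgeR adjusted p = 0.797).

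In the receptor pair, the b copy held a larger share of the counts in each mutant library than in any wildtype library. Of the counts on both rows, igf1rb held 22.4%, 23.9% and 22.2% in the wildtype libraries and 28.3%, 28.8% and 28.3% in the mutants. The shares did not overlap, with means of 22.8% ± 0.92 and 28.5% ± 0.266 (SD, n = 3 each). These shares do not depend on the scaling between libraries. They are shares of counts uncorrected for transcript length, and no test was made on them. As they reuse the igf1rb counts, they add no support to its call. The igf2 pair showed no such difference, with igf2b at 59.7% ± 2.84 in wildtype and 59.7% ± 3.31 in mutant libraries.

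**Figure D2:**
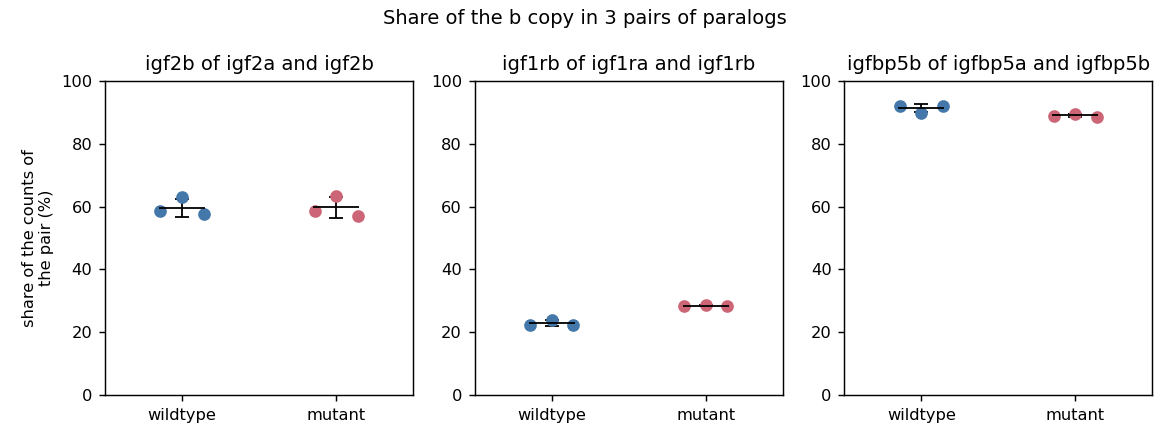
Points give, for each of the 3 wildtype and 3 mutant libraries, the percentage of a pair's counts that lies on the b copy, with mean and SD as bars, on axes from 0 to 100%. The igf1rb share is 22.2% to 23.9% in wildtype and 28.3% to 28.8% in mutant libraries, the igf2b shares overlap, and the igfbp5b share is slightly lower in each mutant.

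Among the binding proteins, both igfbp5 copies lay higher in every mutant library, as did 15.1% of all genes tested. Only igfbp5b passed the test. Igfbp5 proteins bind IGFs and the extracellular matrix and are associated with bone, muscle and, in zebrafish, calcium-transporting skin cells. The igfbp5b row (LL0000012545) measured 28.8, 31.3 and 30.3 CPM in wildtype and 36.8, 37.1 and 37.9 CPM in mutant libraries. The gap between the groups was wider than the range within either. The log2 fold change was 0.30 (SE 0.079, interval 0.14 to 0.47; edgeR adjusted p = 0.0165). The call was lost when mutant replicate 1 (adjusted p = 0.0562), 2 (0.0672) or 3 (0.0804) was left out, and with DESeq2 (0.153). The fold change itself stayed between 0.28 and 0.33 on the log2 scale over all 14 alternatives.

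The igfbp5a gene is known in zebrafish from the NaR ionocytes, skin cells that take up calcium. Its row (LL0000012544) held 21, 36 and 29 counts in wildtype and 54, 42 and 52 counts in mutant libraries, or 2.46, 3.51 and 2.67 against 4.55, 4.30 and 4.86 CPM. All mutants lay above all wildtypes, as in 15.1% of genes tested. The log2 fold change of 0.66 was the largest among the tested members and had the widest interval (SE 0.22, interval 0.20 to 1.12). It missed the threshold (edgeR adjusted p = 0.0582) and passed it without wildtype replicate 2 (0.0366). Of the counts on both igfbp5 rows, igfbp5b held 91.3% ± 1.22 in wildtype and 89.1% ± 0.495 in mutant libraries (SD, n = 3 each), and those shares did not overlap.

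Genes listed as NaR ionocyte markers were mixed, and atp6v1aa, ca2 and gcm2 among them are not particular to that cell. Of 8 genes tested, edgeR called 0, beside 11.7% of all genes, and neither DESeq2 nor limma-voom called any. At an unadjusted p under 0.05 there were 3, beside 5160 of all 20229 genes. Of those 3, the calcium pump gene atp2b1a (log2 fold change 0.21) and the ionocyte factor gene foxi3a (0.36) lay above in all mutants, and the proton pump gene atp6v1aa (-0.19) lay below. The foxi3b gene (0.21) also lay above in all mutants, as did 15.1% of all genes tested. These 4 genes were picked for mention with their values known. For the calcium channel gene trpv6 the means were 6.32 ± 1.08 and 6.34 ± 0.500 CPM in wildtype and mutant libraries (SD, n = 3 each). The list summed to 359 to 389 CPM in wildtype and 345 to 368 CPM in mutants, most of it from atp6v1aa and ca2, so the sum does not measure NaR cells. What part NaR cells have in the igfbp5a values was not tested.

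The 3 other binding protein members differed between groups by less than the spread between libraries. Igfbp1a, a product of liver and other tissues that restrains growth and is induced by hypoxia in zebrafish embryos, measured 14.9, 15.0 and 15.2 CPM in wildtype and 13.0, 13.0 and 17.9 CPM in mutant libraries (LL0000012539). The wildtype values were nearly equal, and mutant replicate 3 lay above them while the other 2 mutants lay below. Its log2 fold change was -0.04 (interval -0.32 to 0.24; edgeR adjusted p = 0.888). For igfbp2a (LL0000012541), whose product is a circulating inhibitor of growth in zebrafish, values were 47.6, 52.6 and 42.1 CPM in wildtype and 49.6, 47.8 and 46.8 CPM in mutant libraries.

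The wildtype range of igfbp2a enclosed all 3 mutants, with a log2 fold change of 0.02 (interval -0.16 to 0.20; edgeR adjusted p = 0.919). The gene igfbp3, for a carrier protein that in zebrafish embryos is needed for pharyngeal cartilage and inner ear, measured 14.9, 12.5 and 12.0 CPM in wildtype and 13.0, 13.4 and 14.0 CPM in mutant libraries (LL0000012543). The groups overlapped there too (log2 fold change 0.05, interval -0.21 to 0.30; edgeR adjusted p = 0.860).

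**Figure D3:**
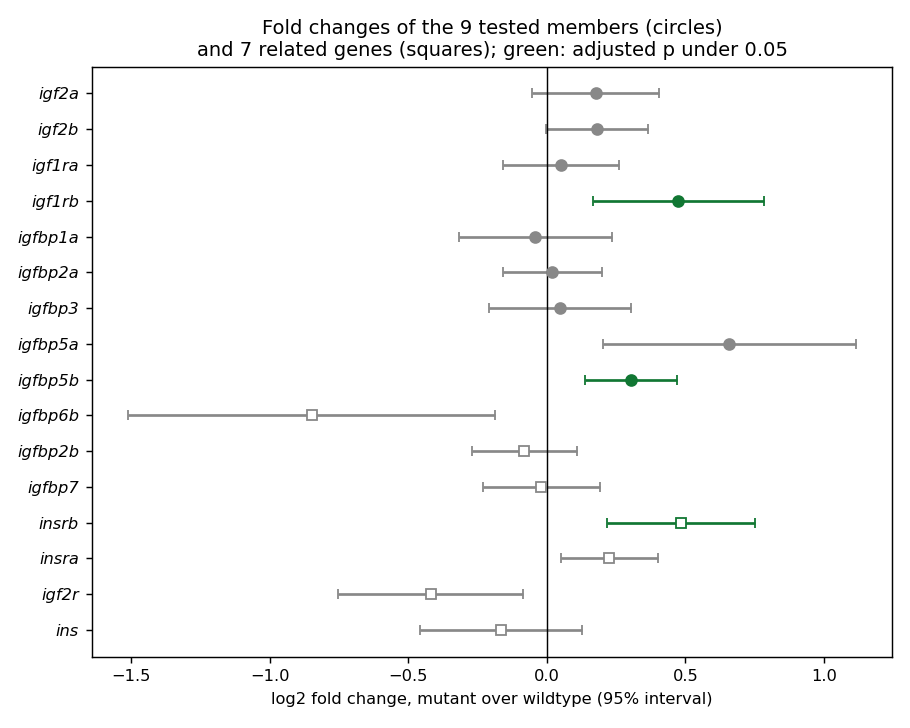
Log2 fold changes of mutant over wildtype with 95% intervals are drawn for the 9 tested members (circles) and 7 related genes (squares); green marks an edgeR adjusted p under 0.05. The members igf1rb (0.48) and igfbp5b (0.30) and the related insrb (0.48) are green, and the intervals of igfbp5a, igfbp6b, insra and igf2r exclude 0 without passing the adjusted threshold.

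Among the binding protein genes, members neighbour each other or a paralog of a member, which the choice of genes did not use. In the RefSeq gene table of assembly GRCz12tu, igfbp5a is next to igfbp2a, igfbp5b next to igfbp2b, and igfbp3 next to igfbp1a, counting protein-coding genes. In both igfbp2-igfbp5 pairs the igfbp5 copy had the higher log2 fold change, 0.66 beside 0.02 for the a pair and 0.30 beside -0.08 for the b pair. The igfbp2b means were 31.1 ± 1.57 CPM for wildtype and 29.5 ± 2.71 CPM for mutants (SD, n = 3 each; edgeR adjusted p = 0.626). The same table gives the a and b names of igf2, igfbp2 and igfbp5 as synonyms of each other, so older names for these copies can be swapped; the symbols used here are those of the deposited table.

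Other binding protein genes had no calls. Of 3 tested, edgeR called 0, beside 11.7% of all genes, and neither DESeq2 nor limma-voom called any. At an unadjusted p under 0.05 there was 1, beside 5160 of all 20229 genes. That 1 gene was igfbp6b, for a binding protein with a preference for IGF2 in mammals. It held 2.46, 2.53 and 2.76 CPM in wildtype and 1.18, 2.05 and 1.12 CPM in mutant libraries, so that all mutants lay below, as in 15.4% of genes tested (log2 fold change -0.85 with SE 0.31; edgeR adjusted p = 0.0909). It was chosen for mention after its values were seen.

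Other ligands, receptors and docking proteins of insulin and IGF showed 2 higher and 0 lower of 13 genes tested. That is 15.4%, beside 11.7% of all genes called in either direction and 5.85% called higher. With 2 of 13 called, the count is too small to set the list apart from other genes. The docking protein gene irs2b, which links the receptors to PI3K, rose from 29.9 ± 1.90 to 39.9 ± 1.49 CPM (SD, n = 3 each; log2 fold change 0.41 with SE 0.081; edgeR adjusted p = 0.00253), and it passed with each library left out. The insulin receptor gene insrb measured 14.4, 22.4 and 20.4 CPM in wildtype and 26.5, 26.4 and 27.7 CPM in mutant libraries. As with igf1rb, the mutants were closer together than the wildtypes (log2 fold change 0.48 with SE 0.13, edgeR adjusted p = 0.0201). Mutant libraries also differed less from each other than wildtype libraries did over genes in general, so this is not particular to these genes.

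The insrb call was lost when mutant replicate 1 (adjusted p = 0.0664), 2 (0.0790) or 3 (0.0931) was left out, and the list then counted 1 gene; it was also lost with DESeq2 (0.0643). Its paralog insra, chosen after its values were seen, did not pass at 34.1 ± 2.94 and 39.9 ± 1.96 CPM (log2 fold change 0.22; edgeR adjusted p = 0.0907). The igf2r gene, whose mammalian counterpart clears IGF2, had a log2 fold change of -0.42 (edgeR adjusted p = 0.0980) and was likewise chosen afterwards. The median log2 fold change of the 13 genes was 0.09, beside -0.0057 over all genes tested and 0.18 over the 9 members.

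Genes around the ligands and binding proteins had no calls in 3 lists. Beside 11.7% of all genes called, a count of 0 in lists this small does not set them apart. Of 9 proteases and protease inhibitors that act on binding proteins, among them the pappalysins and stanniocalcins, edgeR called 0, with 1 at an unadjusted p under 0.05. Of 4 genes for proteins that bind igf2 mRNA, the count was also 0, with 1 at that level. Of 11 genes of the growth hormone axis, it was 0, with 0 at that level. Among all 20229 genes tested, 5160 were at that level. DESeq2 and limma-voom called none in these 3 lists, beside 1172 and 2065 of the 20229 genes tested. The growth hormone gene gh1 had 4, 0 and 0 counts in wildtype and 2, 0 and 1 counts in mutant libraries, too few for a comparison.

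Downstream of the receptors, 3 of 43 genes of PI3K, Akt, FoxO and TOR were higher and 1 lower, 9.30% called beside 11.7% of all genes. The TOR-controlled translation repressor gene eif4ebp3l rose from 30.0 ± 1.56 to 42.5 ± 3.73 CPM (log2 fold change 0.50 with SE 0.085; edgeR adjusted p = 0.00075). The gene akt1s1, for an inhibitory TOR complex subunit that Akt phosphorylates, rose from 76.1 ± 6.49 to 103 ± 6.47 CPM (0.44, SE 0.076; adjusted p = 0.000854). The repressor gene eif4ebp2 rose by 0.20 and the kinase gene akt2l fell by 0.34 on the log2 scale (adjusted p = 0.0407 and 0.0158). Both of these calls ended without wildtype replicate 3 or any 1 mutant library, that of eif4ebp2 also without wildtype replicate 2, with adjusted p of 0.0563 to 0.155. The akt2l call was also lost with DESeq2 (0.155). The eif4ebp2 call, made in 5 of 14 alternatives, was also lost with library totals only (0.0603), with no low-count filter (0.0594) and without robust weights (0.0658). The list counted 2 genes without wildtype replicate 3 or any 1 mutant.

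**Figure D4:**
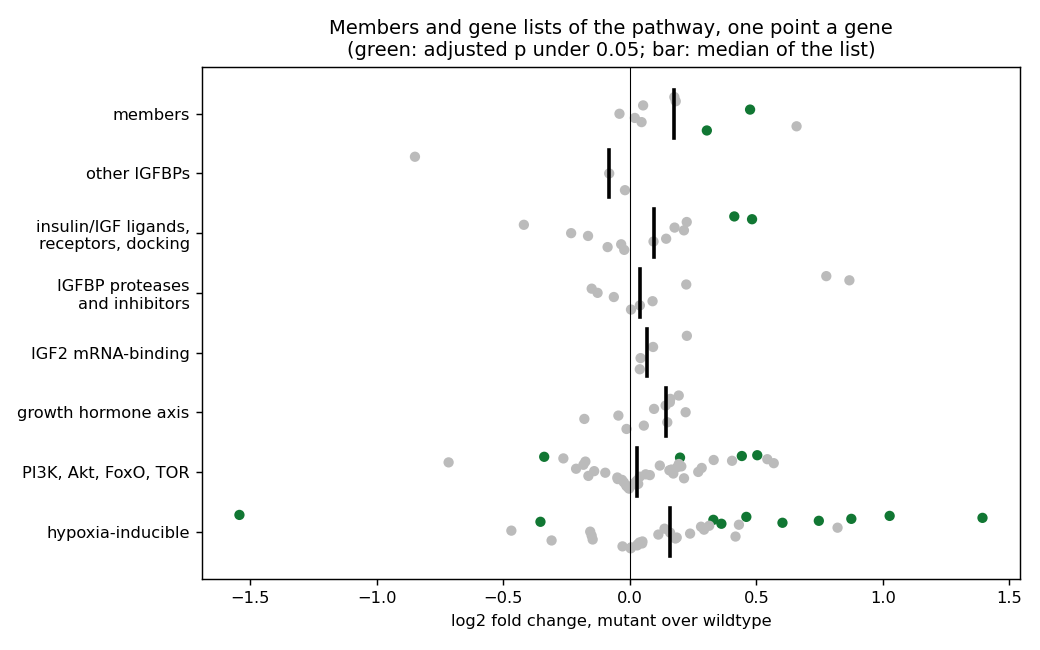
Each point is the log2 fold change of a tested gene, mutant over wildtype, in the 9 tested members and 7 gene lists; green marks an edgeR adjusted p under 0.05 and the bar is the median of the list. The members have a median of 0.18, the hypoxia list spreads furthest, from -1.54 to 1.39, and the growth hormone list has no green point.

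Hypoxia-inducible genes were included because igfbp1a is counted among them in zebrafish. Of 35 tested, 8 were higher and 2 lower, 28.6% called beside 11.7% of all genes. The other 25 had no call, vegfaa (log2 fold change 0.29), pdk1 (0.28), ldha (0.14) and slc2a1a (0.0054) among them. The list also holds hif1aa, hif1ab, hif1an and vhl, genes of the oxygen-sensing pathway itself, so the percentage is not that of induced targets alone. Whether the mutants were hypoxic was not tested. The oxygen-sensing prolyl hydroxylase gene egln3 rose from 2.63 ± 0.869 to 6.80 ± 0.833 CPM (SD, n = 3 each; log2 fold change 1.39 with SE 0.22; edgeR adjusted p = 0.000497). The collagen prolyl hydroxylase gene p4ha1b rose from 15.1 ± 1.098 to 30.8 ± 3.22 CPM (1.03, SE 0.11; adjusted p = 4.98e-06), and pfkfb4b, for a regulator of glycolysis, rose by 0.46. The stress-response gene ndrg1b fell from 19.0 ± 2.40 to 6.44 ± 0.927 CPM (-1.54, SE 0.14). Its paralog ndrg1a, in the same list, was called the other way (0.33, SE 0.073; edgeR adjusted p = 0.00643). The genes egln3, p4ha1b, pfkfb4b and ndrg1b passed with each library left out, while igfbp1a stayed within the interval given above. The list counted 6 genes without wildtype replicate 3 or mutant replicate 1, and 6 with DESeq2.

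Tissue markers differed between the groups in several lists, and their part in the values of the members was not tested. Summed skeletal muscle markers were 41742 to 43948 CPM in wildtype and 44398 to 47405 CPM in mutant libraries. Large parts came from actc1b (means 11459 and 12727 CPM) and myhz1.1 (8639 and 10086 CPM), both uncalled with overlapping groups. Of the 13 muscle genes, 3 lay above and 4 below in all mutants, beside 15.1% and 15.4% of all genes tested. Counts this small do not set the list apart. Summed cartilage and bone markers were 929 to 1027 and 1114 to 1500 CPM, mostly from col2a1a; without it the other 7 summed to 71.2 to 83.9 and 67.1 to 73.6 CPM. Summed epidermis markers were 19497 to 20941 and 21386 to 22639 CPM, mostly from krt4, which was uncalled with overlapping groups (means 12169 and 13399 CPM). Summed heart markers were 132 to 137 and 140 to 149 CPM, with 0 of 7 genes called by edgeR, beside 11.7% of all genes. Neural markers summed to 2084 to 2219 and 1987 to 2053 CPM. Large parts came from tubb5 (means 708 and 619 CPM) and elavl3 (621 and 651 CPM), which went opposite ways. Erythroid markers summed to 3473 to 8206 and 5944 to 6271 CPM, with wildtype replicate 1 highest and replicate 2 lowest. Of 7 erythroid genes edgeR called 0, beside 11.7% of all genes, with 1 at an unadjusted p under 0.05, beside 5160 of all 20229 genes. DESeq2 called 0 and limma-voom 3, beside 1172 and 2065 of the 20229 genes tested. The median log2 fold change of the 7 was 0.52, beside -0.0057 over all genes tested. Markers of liver, the tissue of much igf1 and igfbp1a expression in later life, summed to 9946 to 11593 and 9804 to 10489 CPM. Most of it came from apoa1b (means 4037 and 4131 CPM) and apoa2 (3162 and 3140 CPM), both uncalled with overlapping groups. The liver sum is thus largely that of these genes, while fabp10a was near 0.

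Called markers of skeletal muscle went both ways, as did those of the yolk layer list through ctslb alone. Those of the liver (3 calls), neural (3) and lens (2) lists went in a single direction. The share called was 25% for liver, 37.5% for neural, 28.6% for lens, 38.5% for muscle and 42.9% for yolk layer genes. Of all genes tested, 11.7% were called, 5.87% as lower. The NaR ionocyte, heart, erythroid and pituitary lists had 0 calls. Counts this small do not set a list apart. The cartilage and bone list and the epidermis list had 1 call each, so their calls could not differ in direction. Of 13 muscle genes, the myogenic factor genes myod1 (log2 fold change -1.41) and myog (-0.83) fell and 3 genes rose, smyhc1 (0.25) among them. The collagen gene col2a1a of the cartilage and bone list (0.45) and the keratin gene krt8 of the epidermis list (0.51) rose. The other 5 cartilage and bone genes tested had no call, col10a1a (-0.98), sp7 (-0.67) and runx2b (-0.29) with negative values, and the median of that list was -0.13. Of the liver list, serpina1l (-0.51), tfa (-0.35) and ambp (-0.30) fell, and of the neural list, neurod1 (-0.35), elavl4 (-0.25) and tubb5 (-0.19) fell. In which tissue these transcripts fell was not tested. Positive values without a call were found in 3 of 12 liver genes and 3 of 8 neural genes. The neural ones were elavl3 (0.07), snap25a (0.08) and sox2 (0.05), and the median of the neural list was -0.09. Lens crystallins crygm2d1 (-0.51) and crygn2 (-0.21) fell, but 4 of 7 lens genes had positive values without a call. Among these were the crystallins crybb1 (0.20), cryba1b (0.17) and cryaa (0.08), and the median of the lens list was 0.08. The yolk layer genes apoa4b.1 (-0.38) and mttp (-0.50) fell, while ctslb, also counted with hatching gland genes, rose (1.57). Rows of smyhc1, serpina1l, tubb5, crygm2d1, apoa4b.1, mttp and ctslb have non-whole counts in 3 or more libraries, so reads there may be shared. The calls of col2a1a, smyhc1, ambp, neurod1, elavl4, tubb5 and crygn2 did not hold against leaving out 1 library (adjusted p up to 0.201). That library was mutant replicate 2 for smyhc1, any mutant for ambp, wildtype replicate 1 or 3 or mutant replicate 2 for col2a1a, and wildtype replicate 1 or mutant replicate 2 or 3 for neurod1. It was wildtype replicate 2 or any mutant for elavl4 and tubb5, and wildtype replicate 2 or 3 or mutant replicate 2 or 3 for crygn2.

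Genes with the profile most like each called member were listed by distance between centred log2(CPM + 1) profiles over the 6 libraries, among 12907 genes with at least 5 CPM. Nearest to igfbp5b were pold2, for a DNA polymerase delta subunit (distance 0.0574), nid1a, for a basement membrane nidogen (0.0626), phf21ab (0.0679) and the kinase gene taok2a (0.0692). Nearest to igf1rb were rin3 (0.0884), the proton channel gene hvcn1 (0.101), fndc3ba (0.123) and the septin gene sept4a (0.139). Their fold changes lay in the range of the member they resembled, from 0.29 to 0.34 for the first set and from 0.41 to 0.46 for the second. All 8 were picked for likeness in the same 6 libraries, so their own calls add no support.

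**Figure D5:**
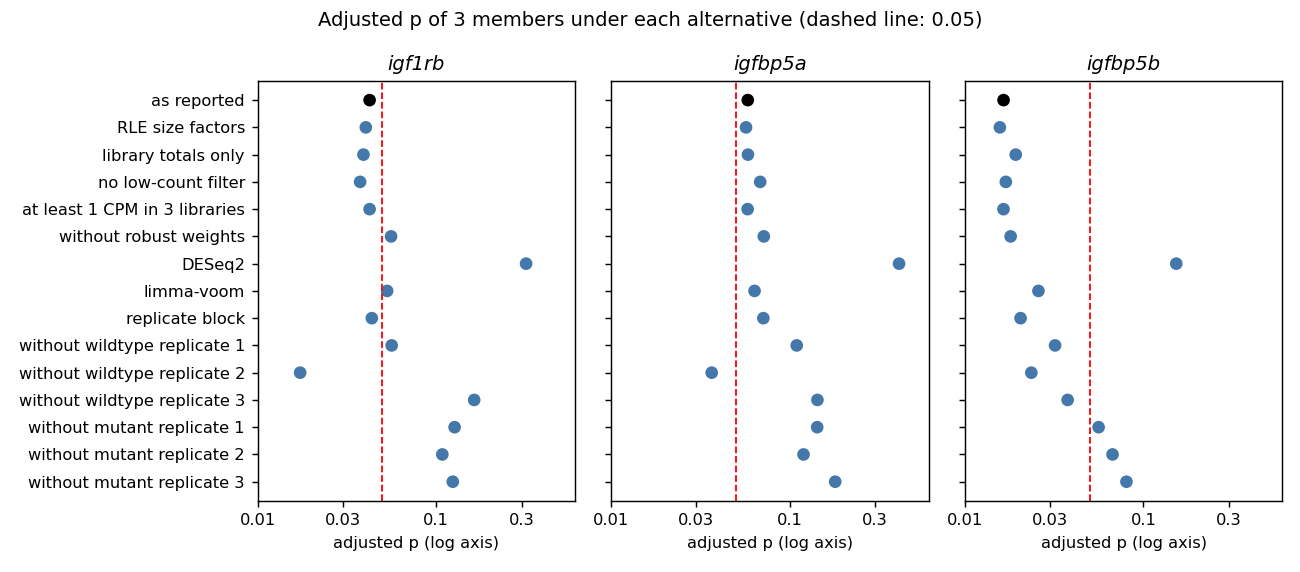
Points give the edgeR, DESeq2 or limma-voom adjusted p, on a log axis, of igf1rb, igfbp5a and igfbp5b as reported (black) and under 14 alternatives (blue), with a dashed line at 0.05. The value of igf1rb lies under the line in 6 of 14 alternatives, that of igfbp5b in 10 and that of igfbp5a in 1, and igfbp5b crosses it with each mutant library left out and with DESeq2.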

How the data were processed

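The authors deposited 1 table of expected counts, with genes in rows and the 6 libraries in columns, without scaling between libraries. Per the submitters' processing notes, STAR, RSEM, DESeq2 and build danRer11 were used; versions, annotation and strand setting are not given in the sources used here, so genes with overlapping or antisense neighbours are uncertain. Of all values, 18.8% are not whole (tolerance 0.005). Columns were matched to samples by genotype and number. Members, gene lists and tests were chosen with earlier results of these data known.

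Expected counts were rounded and fitted on the whole table in R 4.3.3 with edgeR 4.0.16: filterByExpr (minimum count 10), TMM factors, quasi-likelihood test with robust weights, group as the only term, p adjusted by Benjamini-Hochberg over 20229 genes, called under 0.05. Alternatives included DESeq2 1.42.0 and limma 3.58.1 (voom). Standard errors divide the absolute log2 fold change by the root of F. The common biological coefficient of variation was 10.3%. A count of 0 allows up to 3 counts, 0.253 to 0.351 CPM, for counting error alone, as reads made by PCR are not independent. The fit was tested on simulated counts. Lists were matched by symbols that stand on 1 row, with no set test. Named genes are all members, dnajc21, up to 4 called genes of each pathway list and 3 of each marker list by adjusted p, and the 4 profiles nearest to each of the 2 called members. Beyond these, ndrg1a and some uncalled genes were named by hand, knowing their results. Libraries with the same number did not deviate together (correlations -0.009, -0.017 and 0.052), so numbers were not taken as pairs. Replicates of a group differed by more than sampling noise, with chi-square per degree of freedom of 2.08 to 2.78 between mutant libraries. Between wildtype libraries it was 5.62 for replicates 1 and 3, and 26.9 and 28.6 for the pairs with replicate 2. Symbols of all 10 members were found in the RefSeq table, whose build differs, so no coordinates are given. Figures were drawn with matplotlib 3.10.9.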

Additional observations from a re-analysis of the deposited data

How the results depend on the processing

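Over 14 alternatives, 120 of 126 log2 fold changes of the tested members kept their direction. The exceptions arose with 1 library left out, where values ranged from -0.048 to 0.14 for igf1ra, -0.21 to 0.046 for igfbp1a, -0.060 to 0.10 for igfbp2a and -0.013 to 0.14 for igfbp3; none of these passed the test. Without wildtype replicate 3, 5 of 10 members with a value were positive, against 8 of 9 with all libraries. The number of members called was 2 with other scalings, other filters and the replicate number as a block; the block gave 2470 called genes in all and changed no call of a member, while eif4ebp2 lost its call (adjusted p = 0.0541). It was 1 without robust weights, 1 with limma-voom and 0 with DESeq2, and 0 to 3 with 1 library left out: 1 without wildtype replicate 1 or 3, 3 without wildtype replicate 2 and 0 without any 1 mutant. Genes called in all numbered 2372 as reported, 1220 with DESeq2 and 1242 to 2658 with 1 library left out. In the lists, calls fell from 10 to 6 for hypoxia and from 2 to 1 for receptors and docking genes with DESeq2, and from 4 to 2 for PI3K to TOR genes with some libraries left out. Leaving out a library leaves fewer samples in the fit; beyond that the cause was not tested. The limiting depth is that of igf1, with 6 to 12 counts a library.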
